A study of Rattus norvegicus with 18 samples.

Results

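The genes described here make, package and break down the inhibitory transmitter GABA, set the chloride gradient that its ion channels use, and form its metabotropic receptor. They are Gad1, Gad2, Slc32a1, Abat, Slc12a5, Slc12a2, Gabbr1 and Gabbr2. They were chosen by gene symbol, and all 8 are on the array, among 12344 genes named there. Together they have 14 probes.

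RNA of the whole hippocampus of adult male Wistar rats was measured, each rat on an array of its own, which gave 18 arrays. Rats of 3 groups received scopolamine methylnitrate and then a single injection of pilocarpine, a muscarinic agonist that causes status epilepticus (SE), which was ended with diazepam. The first group, D3 (n = 5), was killed at day 3 and the second, D7 (n = 5), at day 7 from SE. The third, Chronic (n = 5), was killed just after the first spontaneous seizure. Control rats received only saline (n = 3), with 1 rat matched to each of the 3 times. Saline rats received neither scopolamine nor diazepam, so that these agents cannot be told apart from SE. All comparisons with Control share these 3 arrays. Levels are normalized intensities, scaled so that the median spot of an array is about 1, and levels of different genes cannot be compared on an array.

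GABA is made from glutamate by 2 glutamate decarboxylases, GAD67 (Gad1) and GAD65 (Gad2), loaded into vesicles by VGAT (Slc32a1) and degraded by GABA transaminase (Abat). Its fast action at GABA-A receptors depends on intracellular chloride, which the neuronal cotransporter KCC2 (Slc12a5) exports and NKCC1 (Slc12a2) imports. Its slow action runs through the GABA-B receptor, an obligate pair of GABBR1, which binds GABA, and GABBR2, which couples to G proteins.

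Promoter sequences are shown for Gad1, Slc32a1, Slc12a5, Gabbr1 and Gabbr2, which all fell at D3 and D7. They are RefSeq sequences of build GRCr8, each 300 bases long, and an entry was found for 7 of the 8 genes. For Slc32a1, Slc12a5 and Gabbr2 the window runs from 250 bases before to 50 after the start of the annotated gene. For Gad1 and Gabbr1 it lies further into the gene, with only 58 and 134 of its bases before the annotated start. Capitals mark letters that match a searched motif on either strand, as described after the sequences.
Gad1, chr3:75777202-75777501, plus strand: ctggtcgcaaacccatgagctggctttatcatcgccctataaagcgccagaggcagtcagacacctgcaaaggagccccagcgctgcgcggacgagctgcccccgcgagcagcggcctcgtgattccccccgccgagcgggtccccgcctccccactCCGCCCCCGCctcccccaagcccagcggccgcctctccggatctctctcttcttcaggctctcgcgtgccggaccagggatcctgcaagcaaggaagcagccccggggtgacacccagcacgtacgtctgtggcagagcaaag
Slc32a1, chr3:167686995-167687294, plus strand: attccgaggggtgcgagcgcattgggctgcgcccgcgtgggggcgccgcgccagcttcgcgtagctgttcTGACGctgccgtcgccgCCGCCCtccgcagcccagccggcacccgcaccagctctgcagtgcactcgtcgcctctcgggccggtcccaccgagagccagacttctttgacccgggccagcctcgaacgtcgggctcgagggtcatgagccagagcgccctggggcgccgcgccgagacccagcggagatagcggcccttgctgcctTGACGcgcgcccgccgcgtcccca
Slc12a5, chr3:174115583-174115882, plus strand: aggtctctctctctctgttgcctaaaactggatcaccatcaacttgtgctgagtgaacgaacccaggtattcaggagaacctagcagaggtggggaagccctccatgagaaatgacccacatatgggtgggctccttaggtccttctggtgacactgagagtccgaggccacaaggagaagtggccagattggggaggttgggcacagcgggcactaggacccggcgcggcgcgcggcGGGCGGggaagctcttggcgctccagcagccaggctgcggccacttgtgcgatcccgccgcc
Gabbr1, chr20:1499187-1499486, minus strand: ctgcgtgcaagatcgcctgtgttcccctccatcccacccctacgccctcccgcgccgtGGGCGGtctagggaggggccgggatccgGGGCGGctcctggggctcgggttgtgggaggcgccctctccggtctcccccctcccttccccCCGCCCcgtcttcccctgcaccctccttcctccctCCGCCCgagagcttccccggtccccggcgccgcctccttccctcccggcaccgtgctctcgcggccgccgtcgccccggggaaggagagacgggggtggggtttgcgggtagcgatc
Gabbr2, chr5:66083646-66083945, minus strand: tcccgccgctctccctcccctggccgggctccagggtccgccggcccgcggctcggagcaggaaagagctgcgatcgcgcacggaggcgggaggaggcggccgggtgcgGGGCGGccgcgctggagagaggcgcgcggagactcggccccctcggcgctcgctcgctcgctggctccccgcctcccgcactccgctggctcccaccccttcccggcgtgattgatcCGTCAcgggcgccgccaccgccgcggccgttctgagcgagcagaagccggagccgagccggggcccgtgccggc

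The Sp1 letters GGGCGG were present in 6 of the 7 promoters, against 33.1% of 33469 RefSeq promoters of the same length. The short form TGACG of the cAMP response element was found in Slc32a1, with 2 matches, and in Gabbr2, with 1 match, and in 21.2% of all promoters. The EGR letters, GCGTGGGCG or GCGGGGGCG, were found in Gad1 alone of the 7, where they overlap the Sp1 match, and in 3.2% of all promoters. No match of the 7 was found for the full element TGACGTCA (1.83% of all promoters), the E-box CACGTG (6.42%) or the AP-1 letters TGACTCA or TGAGTCA (4.63%). GC content was 67.7% in Gad1, 73.7% in Slc32a1, 61.3% in Slc12a5, 75% in Gabbr1 and 78.7% in Gabbr2, above the median of 51.7% over all promoters. These matches describe the letters of the window, and binding was not measured.

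Gad1, Slc32a1, Slc12a5, Gabbr1, Gabbr2 and the brightest probe of Abat were lower than in Control at D3 and D7. In Chronic, Gad1, Slc32a1 and Gabbr1 were lower and Slc12a2 was higher, while Gad2 passed at no time. A gene passed the test at a limma adjusted p under 0.05, with no limit on the fold change. At D3, 6 of the 8 genes passed and all 6 were lower, where 16.5% of all 12331 tested genes passed in that direction and 11.8% in the other. At D7, 6 of the 8 were again lower (15.5% of all genes were lower and 8.04% higher). In Chronic, 3 were lower and 1 was higher, against 12.7% and 6.28% of all genes. The 8 genes had a median log2 fold change of -0.54 (D3), -0.49 (D7) and -0.34 (Chronic), beside -0.10, -0.12 and -0.12 over all genes. No member changed by 2-fold or more, as did 6.07% (D3), 4.29% (D7) and 3.54% (Chronic) of all genes. Brighter genes were lower more often. Of the 3095 genes with a mean level of at least 8, which hold 6 of the members, the share lower was 31.6% for D3, 28.8% for D7 and 25.5% for Chronic.

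**Figure D1:**
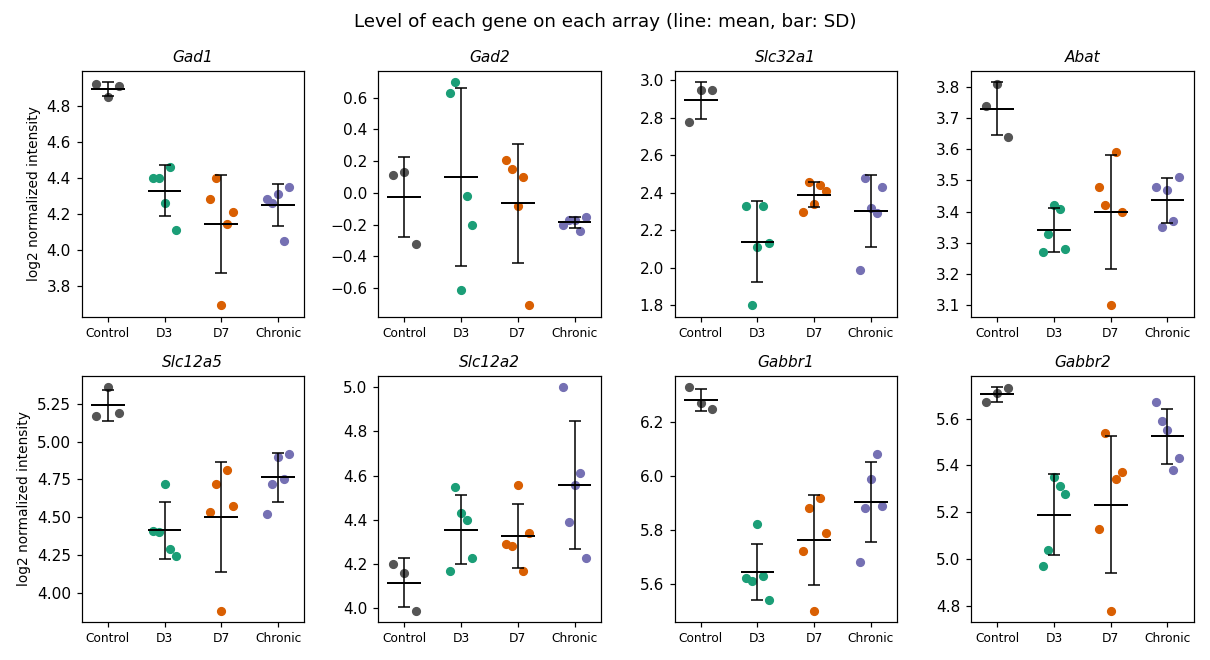
Log2 normalized intensity of each gene (vertical axes, own scale for each gene) on each of the 18 arrays, by group, with points for arrays, lines for means and bars for the SD. Control arrays lie above all pilocarpine arrays for Gad1, Slc32a1, Abat, Slc12a5, Gabbr1 and Gabbr2, but not for Gad2 and Slc12a2.

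Gad1, which encodes the decarboxylase found throughout the cell body and terminals, measured 30.2, 28.9 and 30.1 in the Control rats. At D3 its levels were 21.2, 21.1, 19.2, 22.1 and 17.3. At D7 they were 19.4, 21.1, 12.9, 17.7 and 18.6, and in Chronic 19.4, 19.1, 19.8, 16.6 and 20.3. No pilocarpine array reached the lowest Control array. Gad1 fell by 0.57 ± 0.13 on the log2 scale (standard error) at D3, to 67.5% of Control, with a limma adjusted p of 0.00393. The log2 fold change was -0.75 ± 0.13 at D7 (adjusted p = 0.00107) and -0.65 ± 0.13 in Chronic (adjusted p = 0.00364).

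Gad2, whose product GAD65 is concentrated at nerve terminals, did not pass in any comparison. Its brighter probe measured 1.08, 1.10 and 0.802 in Control while D3 ranged from 0.656 to 1.63, D7 from 0.609 to 1.15, and Chronic from 0.845 to 0.903. The groups overlapped, and the spread at D3 was wide. The log2 fold changes were, for D3, 0.12 (95% interval -0.40 to 0.65), for D7, -0.04 (-0.57 to 0.48), and for Chronic, -0.16 (-0.69 to 0.36). The dimmer probe gave -0.37 at D3 (adjusted p = 0.191), -0.02 at D7 and 0.00 in Chronic. Set against the brighter probe of Gad2 on the same array, Gad1 was lower than in the Control mean by 0.69 ± 0.49 (SD, log2) for D3. It was lower by 0.70 ± 0.44 for D7 and 0.48 ± 0.08 for Chronic, values given with no test of the difference. The dimmer probe (geometric mean 0.598 in Control), whose D3 value was below 0, does not enter these differences. The unequal change at D3 therefore rests on the brighter probe of Gad2 alone, which is itself dim.

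Slc32a1, the only vesicular carrier of GABA and glycine, measured 6.86, 7.75 and 7.72 in Control. Its levels were 5.03, 3.47, 4.31, 5.03 and 4.37 at D3. They were 4.92, 5.52, 5.07, 5.42 and 5.31 at D7 and 3.97, 5.58, 4.99, 4.88 and 5.4 in Chronic. All 15 pilocarpine arrays lay below the Control arrays. Slc32a1 fell by 0.76 ± 0.12 (log2, standard error) at D3, to 59.2% of Control, with a limma adjusted p of 0.000336. The change was -0.50 ± 0.12 at D7 (adjusted p = 0.01) and -0.59 ± 0.12 in Chronic (adjusted p = 0.00468). The D7 value missed the threshold without Control 36 (adjusted p = 0.0505).

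Abat, the mitochondrial enzyme that removes GABA, was lower by its brightest probe. This probe measured 13.3, 14.1 and 12.4 in Control while D3 ranged from 9.67 to 10.7, D7 from 8.55 to 12, and Chronic from 10.2 to 11.4, with no overlap. The log2 fold change was -0.39 ± 0.10 at D3 (adjusted p = 0.00842), then -0.33 ± 0.10 at D7 (adjusted p = 0.0256), and finally -0.29 ± 0.10 in Chronic, which missed the threshold at an adjusted p of 0.0508. Without Control 36 the adjusted p was 0.0525 at D3 and 0.118 at D7, and without Control 26 it was 0.0826 at D7. The Chronic value passed without D7 33 (0.0149) or D7 34 (0.0424). With other single arrays left out, its adjusted p rose to as much as 0.195. Over all alternatives run, the Chronic log2 fold change of Abat ranged from -0.34 to -0.10. The other probes of Abat did not pass. The second gave 0.06 at D3 (adjusted p = 0.842), -0.23 at D7 and -0.30 in Chronic, and the dimmest, flagged low on 9 of 18 arrays, gave 0.30, -0.02 and -0.37. With the mean of all its probes, Abat was at -0.01 at D3 (adjusted p = 0.98) and -0.19 at D7 (adjusted p = 0.505).

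**Figure D2:**
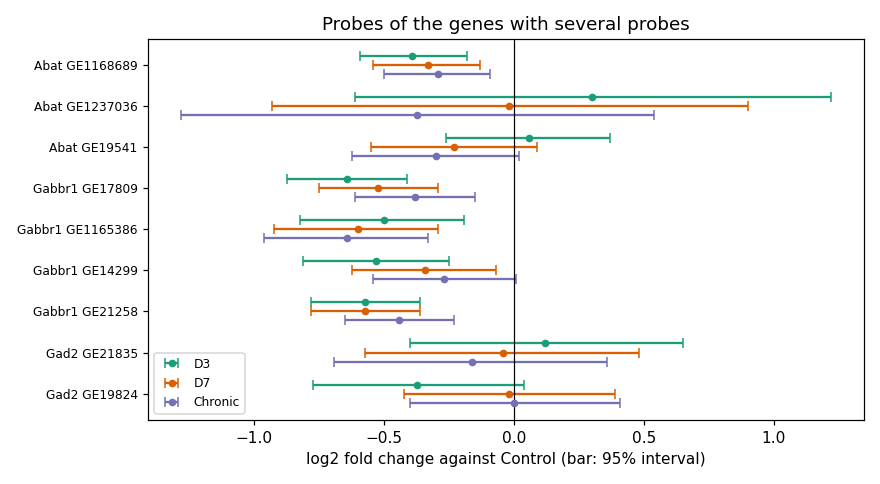
Log2 fold change against Control (horizontal axis) for every probe of the genes with more than 1 probe, with 95% intervals from limma as bars and colours for the groups. All 4 probes of Gabbr1 lie below 0 at each time, whereas those of Abat and Gad2 lie on either side of 0 at D3.

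Of the chloride cotransporters, Slc12a5 was lower at D3 and D7, and Slc12a2 was higher in Chronic. Slc12a5 measured 36.1, 41.1 and 36.4 in Control. Its levels were 21.2, 21.1, 26.3, 19.6 and 18.9 at D3. They were 23.1, 26.3, 14.8, 28.1 and 23.8 at D7 and 23, 26.3, 29.9, 26.9 and 30.3 in Chronic. Every pilocarpine array was below every Control array. Slc12a5 fell by 0.83 ± 0.16 (log2, standard error) at D3, to 56.3% of Control, the lowest of the 8 log2 fold changes (limma adjusted p = 0.0015). It was at -0.74 ± 0.16 at D7 (adjusted p = 0.0056) and at -0.48 ± 0.16 in Chronic (71.8% of Control), where it missed the threshold at an adjusted p of 0.0537. The Chronic value passed without D7 33 (0.00764), D7 34 (0.0456) or D3 13 (0.0496), arrays that enter only through the shared spread. With other single arrays left out, its adjusted p rose to as much as 0.19. Over all alternatives run, the Chronic log2 fold change of Slc12a5 ranged from -0.52 to -0.22.

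Slc12a2 measured 18.3, 17.8 and 15.9 in Control. The D3 rats measured 18, 23.5, 21.5, 21.1 and 18.8, and the D7 rats 19.6, 19.4, 23.5, 18 and 20.3. The Chronic rats, from 41 to 45, measured 31.9, 21.0, 23.5, 24.5 and 18.7. The groups overlapped at D3 and D7, and in Chronic all arrays were above Control. Its log2 fold change was 0.24 (95% interval -0.05 to 0.53) at D3 and 0.21 (-0.08 to 0.50) at D7, neither of which passed. In Chronic it rose by 0.44 ± 0.14 (log2, standard error), or 1.36-fold, with a limma adjusted p of 0.0375. This call rested on few arrays. The adjusted p was 0.0802 without Chronic 41, 0.0508 without Chronic 43 and 0.0605 without Chronic 44, and 0.0802, 0.0923 and 0.132 without Control 26, 36 and 47. With a prior variance that has no trend it was 0.0632. NKCC1 is also made by choroid plexus and glia. Of 14 choroid plexus markers measured, 13 had a log2 fold change above 0 in Chronic, with a median of 1.20 beside -0.12 over all genes. Their errors were wide, and 1 passed as lower and none as higher. The median was -0.12 at D3 and -0.18 at D7, where Slc12a2 did not pass. The summed level of these markers ranged from 24.7 to 113.1 in the D3 rats, 26.1 to 150.1 in the D7 rats, 38.1 to 339.9 in Chronic and 40.8 to 313.2 in Control. In each of the 4 groups the array with the highest sum also had the highest Slc12a2, namely D3 11, D7 33, Chronic 41 and Control 26. Chronic 43 had the lowest sum of its group and 23.5 for Slc12a2. Of 14 oligodendrocyte markers, 12 had a log2 fold change above 0 in Chronic (median 0.30), with 1 passing as higher and 1 as lower. Astrocyte markers had a median of -0.03 there. Chronic 43 had the highest summed oligodendrocyte level of its group (539.2). Only in D7 was the array with the highest oligodendrocyte sum also the highest for Slc12a2. The part of choroid plexus or glia in the Slc12a2 value was not tested.

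Within each array the log2 difference of Slc12a2 minus Slc12a5 was above the mean of Control on all 15 pilocarpine arrays. It was higher by 1.07 ± 0.20 (SD, n = 5) for D3, 0.95 ± 0.50 for D7 and 0.92 ± 0.43 for Chronic, while the Control arrays ranged from -0.08 to 0.15. The lowest pilocarpine array, in Chronic, was at 0.43 and the highest, D7 33, at 1.80. This is a description of unequal change, with no test.

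**Figure D3:**
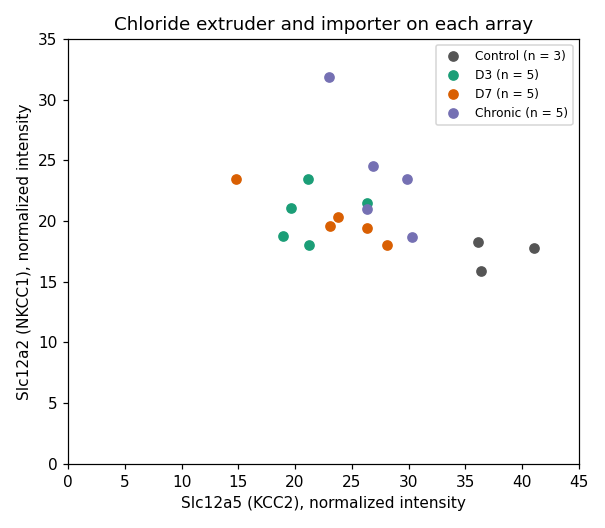
Normalized intensity of Slc12a5 (horizontal axis) and Slc12a2 (vertical axis) on each of the 18 arrays, with points coloured by group. The 3 Control arrays lie at the lower right, with Slc12a5 at 36.1 or more, and no pilocarpine array exceeds 30.3 for Slc12a5.

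Both subunits of the GABA-B receptor were lower at D3 and D7, and Gabbr1 also in Chronic. The brightest Gabbr1 probe measured 80.5, 77.0 and 76.2 in Control. Its levels were 49.1, 48.8, 56.6, 49.4 and 46.5 at D3. They were 52.6, 58.9, 45.4, 60.5 and 55.2 at D7 and 51.4, 59.1, 63.5, 67.6 and 59.1 in Chronic. The pilocarpine arrays did not reach the Control arrays. Gabbr1 fell by 0.64 ± 0.11 (log2, standard error) at D3, to 64.1% of Control (limma adjusted p = 0.000533). It was at -0.52 ± 0.11 at D7 (adjusted p = 0.00424) and at -0.38 ± 0.11 in Chronic (adjusted p = 0.0269). All 4 of its probes passed as lower at D3, and 3 of them passed at D7 and in Chronic. The exception was at -0.34 (adjusted p = 0.0767) at D7 and -0.27 (adjusted p = 0.19) in Chronic. The Chronic call of the brightest probe was lost without Chronic 41 (adjusted p = 0.0597) and without Control 26 (0.105), 36 (0.0784) or 47 (0.0577). It was also lost after quantile normalization, at -0.13 (adjusted p = 0.387), and after scaling to the 75th percentile, at -0.27 (adjusted p = 0.077).

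Gabbr2 measured 51.1, 52.2 and 53.1 in Control. The D3 rats measured 31.2, 33, 40.8, 39.8 and 38.9, and the D7 rats 34.9, 46.7, 27.5, 40.6 and 41.2. The Chronic rats measured 51.1, 48.3, 46.8, 41.6 and 43.1. The highest Chronic array lay just under the lowest Control array. Gabbr2 was at -0.51 ± 0.14 (log2, standard error) at D3 (limma adjusted p = 0.0124) and at -0.47 ± 0.14 at D7 (adjusted p = 0.0252), and did not pass in Chronic, at -0.18 (95% interval -0.47 to 0.11). The D7 call was lost without D7 33 (adjusted p = 0.0502) and without Control 26 (0.0697), 36 (0.0789) or 47 (0.0695). The log2 difference of the subunits, Gabbr1 minus Gabbr2, was -0.13 ± 0.17 (SD) for D3, -0.05 ± 0.15 for D7 and -0.20 ± 0.25 for Chronic relative to Control; this difference was not tested.

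**Figure D4:**
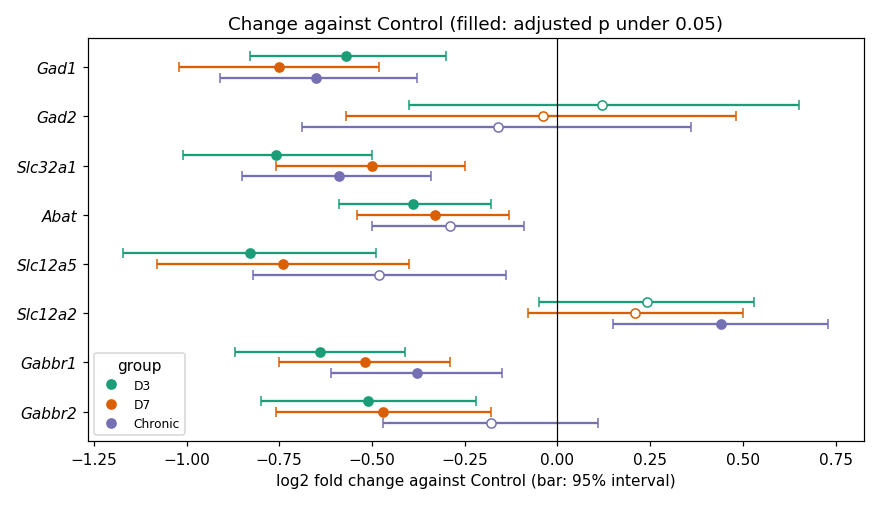
Log2 fold change of each gene against Control (horizontal axis), at D3, D7 and in Chronic (colours), with 95% intervals from limma as bars. Filled points passed at an adjusted p under 0.05, namely 6 genes (D3), 6 (D7) and 4 (Chronic), and the rest are open.

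Each of the 6 lower genes had no overlap with Control at D3, D7 and Chronic alike, where 26.4%, 21.7% and 20.3% of all genes lay wholly below Control. With 3 Control arrays such separation is frequent.

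Between the pilocarpine groups no member passed. Of all genes, 1.44% passed for D7 against D3, 3.86% for Chronic against D3 and 0.219% for Chronic against D7. By limma, 1, 3 and 1 of the members had an unadjusted p under 0.05 in these comparisons, and the methods' t-test after Benjamini-Hochberg called none. In Chronic against D3, Gabbr2 was higher by 0.33 (95% interval 0.08 to 0.59, adjusted p = 0.156), Gabbr1 by 0.26 (adjusted p = 0.16) and Slc12a5 by 0.35 (0.06 to 0.65, adjusted p = 0.204). A weakening of these changes with time was therefore not established at this number of arrays.

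The hippocampus is a mixture, and fewer cells of a type and less RNA per cell cannot be told apart in bulk samples. Pan-neuronal markers fell with the members. At D3, 8 of the 10 measured were lower, as were 8 for D7 and 7 for Chronic, with medians of -0.76, -0.65 and -0.55. Of all genes, 16.5%, 15.5% and 12.7% were lower at these times, and the medians were -0.10, -0.12 and -0.12. The summed pan-neuronal level was 485.2 to 578.0 in Control, 304.9 to 349.3 in the D3 rats, 262.3 to 397.6 in the D7 rats, and 319.3 to 397.5 in Chronic. Nefm, a neurofilament subunit, was at -1.26 at D3 (adjusted p = 0.000353), and Uchl1, an abundant neuronal hydrolase, at -0.70 (adjusted p = 0.000492). Interneuron markers were less uniform, with 5 lower and 1 higher of 15 measured at D3, 4 lower at D7 and 3 lower in Chronic. The interneuron markers lower at D3 were Pvalb, Calb2, Reln, Kcnc1 and Nxph1, named after their values were seen. Pvalb, the calcium buffer of fast-spiking interneurons, was at -1.20 (adjusted p = 0.000359), whereas Sst, of dendrite-targeting interneurons, was at -0.24 (adjusted p = 0.504) and Npy was higher by 1.40 (adjusted p = 0.0421). The summed interneuron level ranged from 93.1 to 125.7 in the D3 rats, 70.2 to 108.0 in the D7 rats, 82.1 to 144.2 in Chronic and 115.4 to 127.2 in Control. This sum includes Npy, a bright marker (mean log2 level 4.06) that was higher at D3, and a sum without Npy was not computed. Some of the 15 markers were near the floor. Htr3a was flagged good on 0 of 18 arrays, Crh on 1 and Erbb4 on 4. Markers of microglia and macrophages rose for 13 of 14 genes at D3. The part of cell composition in the members' values was not tested.

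Of 61 other measured genes of the pathway, 16 were lower and 7 higher at D3, 13 lower and 1 higher at D7, and 13 lower and 2 higher in Chronic. The lower genes were 26.2%, 21.3% and 21.3% of the 61, above the 16.5%, 15.5% and 12.7% of all genes but below the 31.6%, 28.8% and 25.5% of the brighter genes. The higher genes were 11.5% at D3, near the 11.8% of all genes, 1.64% at D7 and 3.28% in Chronic. Among carriers that take up GABA, the astrocytic Slc6a11 (GAT-3) was lower at D3, at a log2 fold change of -0.45 (adjusted p = 0.0264), and Slc6a13 was higher at D3 by 1.65 ± 0.52 (adjusted p = 0.0271). Maob, the monoamine oxidase of astrocytes, rose by 0.80 at D3 (adjusted p = 0.00172) and 0.54 at D7 (adjusted p = 0.0251). Of 9 genes of glutamine and glutamate supply, 1 passed against Control, as higher at D3 (11.1%, near the 11.8% of all genes). This was the astrocytic glutamate transporter Slc1a2, higher by 0.72 (adjusted p = 0.00997) on a dim probe (mean log2 level -0.09).

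Of 13 measured GABA-B effectors and auxiliary subunits, 7 (53.8%) were lower at D3, 7 (53.8%) at D7 and 5 (38.5%) in the Chronic rats. No gene of this list was higher. Of all genes, 16.5% (D3), 15.5% (D7) and 12.7% (Chronic) were lower and 11.8%, 8.04% and 6.28% higher. The list had median log2 fold changes of -0.50, -0.46 and -0.37, beside -0.10, -0.12 and -0.12 over all genes. Gnao1, a G protein alpha subunit, was at -0.60 at D3 (adjusted p = 0.00109), and Gnai1 at -0.70 at D7 (adjusted p = 0.00183). The channel subunit Kcnj5 was at -0.50 at D3 (adjusted p = 0.00164). The N-type calcium channel gene Cacna1b was at -0.89 at D7 (adjusted p = 0.00807). Rgs7 and its partner Gnb5, which speed the shut-off of G protein signals, were at -0.68 (adjusted p = 0.0194) and -0.73 (adjusted p = 0.0106) at D3. Kctd8, an auxiliary subunit of the receptor, was at -0.74 at D3 (adjusted p = 0.00816). The auxiliary subunits Kctd12 (0.27) and Kctd16 (0.05) did not pass at D3, nor did the channel subunits Kcnj6 (-0.07) and Kcnj9 (-0.42).

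Among cation chloride cotransporters other than the members, Slc12a4 (KCC1) was higher at D3 by 0.73 ± 0.26 (adjusted p = 0.0487) and Slc12a9 by 0.45 (adjusted p = 0.0143). The WNK kinases, which regulate these carriers by phosphorylation, included Wnk2, lower at -0.56 at D3 (adjusted p = 0.0113), and Wnk4, at -0.50 (adjusted p = 0.0209). The neuronal bicarbonate carriers Slc4a3 and Slc4a10 were lower at each time. Slc4a3 was at -0.49 at D3 (adjusted p = 0.0139), -0.54 at D7 (0.0105) and -0.65 in Chronic (0.00455). Slc4a10 was at -0.61 at D3 (adjusted p = 0.0122), -0.52 at D7 (0.0334) and -0.61 in Chronic (0.0184). The carbonic anhydrase gene Car2 was higher in Chronic by 0.58 (adjusted p = 0.0303). Clcn6 was lower at D3, at -0.48 (adjusted p = 0.0401). Of 8 measured regulators of KCC2 expression, Ntrk2, the receptor of BDNF, rose by 0.81 at D3 (adjusted p = 0.00291) and Capn1 rose by 0.45 (adjusted p = 0.0259). None of the 8 passed at D7 or in Chronic. Of 3 measured transcription factors of the GABAergic lineage, all were lower in Chronic, as were 12.7% of all genes. Satb1 was at -0.75 (adjusted p = 0.025), Npas1 at -0.62 (adjusted p = 0.0468) and Dlx5, named after its values were seen, at -0.34 (adjusted p = 0.0459). Satb1 was also lower at D3, at -0.64 (adjusted p = 0.0374).

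Across the 18 arrays, the 15 pairs among the 6 genes lower at D3 and D7 had Pearson r from 0.52, between Slc32a1 and Gabbr2, to 0.94, between Slc12a5 and Gabbr1, with a median of 0.76. These values are descriptions over arrays of 4 groups, which share the contrast of Control with pilocarpine. Among 8477 other genes flagged good on all arrays, Srcin1 (r = 0.96) and Psd3 (0.95) were among those most like Slc12a5. The genes most like Gabbr1 were Kctd13 (0.98), Tsga13 (0.97) and Astn1 (0.96), and those most like Gad1 were Ssbp2 (0.93), Dtd1 (0.91) and Pacs1 (0.91). For Slc32a1 they were Eif5 (0.87), Dnajc27 (0.87) and Ttc3 (0.86), for Abat Trappc8, Adcyap1 and Dph6 (0.93 each), and for Gabbr2 Hcfc1 (0.91), Treh (0.89) and Wdr47 (0.89). Slc12a2 was most like Prkcq (0.87), Abcc1 (0.87) and Car2 (0.84). Gad2 had no gene above 0.72, its nearest being Tyw5 (0.72), Wwp1 (0.65) and Pitpna (0.64).

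The scaling of the arrays and the few Control arrays limit these calls. After quantile normalization 2 of the 8 genes passed at D7, both lower, where Slc32a1 was at -0.34 (adjusted p = 0.0661), Gabbr1 at -0.26 (0.0512), Gabbr2 at -0.21 (0.348) and Abat at -0.14 (0.295). At D3 it ended the calls of Gad1 (-0.30, adjusted p = 0.0882), Abat (-0.21, 0.088) and Gabbr2 (-0.20, 0.323) and added Slc12a2 as higher (0.47, 0.041). Scaling to the 75th percentile ended the D7 calls of Abat (-0.22, adjusted p = 0.0982) and Gabbr2 (-0.36, 0.0795). Against the time-matched Control array alone, 1 gene passed at D3, and 0 passed at D7 or in Chronic, although every value of the 6 lower genes stayed below 0.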

How the data were processed

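RNA of 18 rat hippocampi was hybridized to 1-colour CodeLink arrays. The deposited intensity values were made by the authors with GenePix Pro and the CodeLink software, which subtracted the local background and divided each array by 1 constant. The members and gene lists were chosen with earlier results of these data known.

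Spots flagged good (G) or low (L) were kept, and the others (0.699%) set to missing. A floor was set per array at percentile 1 of its positive values, before the log2 step. Probes with at least 3 values per pilocarpine group and 2 in Control entered the test (33800 in number). The 4 groups formed 1 model in limma 3.58.1 (R 4.3.3; eBayes with trend), and p-values were adjusted over all probes by Benjamini and Hochberg. A gene is represented by its brightest probe on average. The number of arrays limits the precision, and p-values set each difference against the spread between arrays, shared over the 4 groups.

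The procedure was tested on simulated data. For D3 against Control, over 30451 probes, 78% of planted changes of 2 log2 units were called, which missed the bar first set. That bar was lowered without a diagnosis and then replaced, after the result was seen, by criteria on bias, false calls and recovery among probes below the median SD (100%, beside 52.2% above it). Smaller planted changes were often missed. Of those of 0.5 log2 units 14% were called (26.9% below the median SD and 0% above it), and of those of 1 unit 62%. All member changes were under 1 unit, so a member that did not pass may still have changed.

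Between 66.0% and 76.0% of spots were flagged G. Named were the members, up to 25 pathway genes that passed against Control by size of change, leading marker genes and the 3 genes most correlated with each member. Some genes that this rule names are not reported here. Alternatives covered scaling, flags, floor, filter, prior, weights, controls, probes, test and single arrays. D7 33 and D3 14, which stood apart in correlation with their group or in signal along control genes, were also left out together, chosen after seeing the data.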

Additional observations from a re-analysis of the deposited data

How the results depend on the processing

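No paired analysis was possible because no replicate number occurs in more than 1 group. No background correction by normexp and no block for slide or scan date was run, since the columns used hold neither a separate background nor a date. In all alternatives run, no gene that passed turned its direction. Quantile normalization gave 2 genes passing at D7. The time-matched Control array alone gave 1 gene at D3 and 0 at D7 and in Chronic, with a single Control array assumed to vary like the other groups. The methods' t-test at their threshold, which adds a 2-fold limit, gave 0 genes in each comparison with Control, and after Benjamini-Hochberg it gave 1 at D7 and 2 in Chronic. The 75th percentile scaling gave 4 genes at D7, without Abat and Gabbr2, and 3 in Chronic, without Gabbr1. For Chronic against D3, it and array weights each gave 1 gene, Gabbr1. It moved the median of all probes from -0.06 to 0.05 at D7 and from -0.08 to 0.03 in Chronic. Leaving out single arrays gave 5 to 6 genes for D3, 3 to 6 for D7, and 2 to 6 for Chronic. At D7 there were 3 genes without Control 36, and in Chronic 2 without Chronic 41 or any single Control array and 6 without D7 33 or D7 34. Leaving out D3 14 and D7 33 together gave 4 genes at D7 and 6 in Chronic. The cause of these differences was not tested.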
